A study of Mus musculus with 16 samples.

Results

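The insulin-like growth factor (IGF) axis was followed in brain endothelial cells (bECs) through 9 genes of the 37003 in the count table. They were chosen by their names, by a rule that uses no measured value, at a time when earlier results of these data were known: the binding protein genes Igfbp3, Igfbp4, Igfbp5, Igfbp6 and Igfbp7, the receptor genes Igf1r, Igf2r and Insr, and the ligand gene Igf2. All 9 passed the filter on low counts and were among the 31085 genes tested.

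RNA came from bECs sorted as DAPI-, CD45- and CD31+ cells in 16 libraries, 4 in each of 4 groups, and each library was made from a pool of adult mice. The study used mice of either sex, and how the sexes were spread over the pools is not given in the sources used here. YT-iKO mice carried Yap fl/fl and Taz fl/fl alleles together with the Pdgfb-iCreER-eGFP transgene, which places a Cre recombinase that tamoxifen activates under the endothelial Pdgfb promoter. CTRL mice were littermates with the same floxed alleles and no transgene. Both genotypes received tamoxifen, so the deletion and the presence of Cre and eGFP cannot be told apart. Mice underwent sham surgery or a middle cerebral artery occlusion (MCAo) of 30 min, and RNA was taken 72 h later. For MCAo the ischemic territory and the matching contralateral area were dissected. Since every library is such a pool, p values measure the spread between these pools. In each genotype the study used more mice for MCAo than for sham over the same number of libraries. Pools were therefore larger on average after MCAo, and the part of pool size in the spread was not tested.

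IGF1 and IGF2 act on cells mainly through the IGF1 receptor, a tyrosine kinase closely related to the insulin receptor, and signal through insulin receptor substrates, PI3K and AKT. The IGF2 receptor, also known as the cation-independent mannose 6-phosphate receptor, carries IGF2 and lysosomal enzymes to lysosomes and has no kinase. The IGF-binding proteins are secreted, hold IGFs in the extracellular space with high affinity (IGFBP7 binds them only weakly) and either restrain or prolong IGF action. In the brain, IGFBP7 is known as a protein of the vascular basement membrane, and endothelial IGF1 and insulin receptors are known to take part in the passage of their ligands across the blood-brain barrier.

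Promoter sequences of 3 binding protein genes are shown because the results below turn on them: Igfbp4 and Igfbp7, which were the members with the clearest differences after MCAo, and Igfbp5, whose values rested on 1 library. Each window holds the 250 bases before the RefSeq transcript start in the build GRCm38.p6 and is written 5′ to 3′ on the gene's strand. Capitals mark matches on either strand to the TEAD motif GGAATG (TEAD factors carry YAP and TAZ to DNA), the FOXO motif GTAAACA, the GC box GGGCGG or the TATA box TATAAA. The GC box and the TATA box were added after the data were seen. No marked matches overlapped one another.
Igfbp4, chr11:99040994-99041243, plus strand: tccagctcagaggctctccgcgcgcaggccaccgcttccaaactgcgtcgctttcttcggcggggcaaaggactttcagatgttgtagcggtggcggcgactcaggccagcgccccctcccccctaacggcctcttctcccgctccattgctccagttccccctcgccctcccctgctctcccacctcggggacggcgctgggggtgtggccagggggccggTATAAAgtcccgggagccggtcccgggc
Igfbp7, chr5:77408046-77408295, minus strand: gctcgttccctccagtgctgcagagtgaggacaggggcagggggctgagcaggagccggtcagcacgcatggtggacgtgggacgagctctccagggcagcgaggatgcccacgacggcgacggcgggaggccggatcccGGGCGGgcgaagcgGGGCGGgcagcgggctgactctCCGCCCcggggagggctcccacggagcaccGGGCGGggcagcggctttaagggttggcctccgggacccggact
Igfbp5, chr1:72874866-72875115, minus strand: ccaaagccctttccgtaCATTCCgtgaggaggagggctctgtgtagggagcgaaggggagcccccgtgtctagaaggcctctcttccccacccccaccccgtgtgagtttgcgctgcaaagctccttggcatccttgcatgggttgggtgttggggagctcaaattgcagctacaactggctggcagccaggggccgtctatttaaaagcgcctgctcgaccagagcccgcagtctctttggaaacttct

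The Igfbp4 window held a TATA box whose first base was at -28 from the transcript start. The Igfbp7 window held 4 GC boxes, at -110, -96, -74 and -44. The Igfbp5 window held 1 TEAD motif at -233. Of all 32851 promoter windows of this length, 12.6% held the TEAD motif, 3.17% the FOXO motif, 32.7% the GC box and 12.4% the TATA box. Windows were found for 8 of the 9 members, 11 windows in all, because Igf2 had 4. Besides Igfbp5, the TEAD motif was found in 3 of the 4 Igf2 windows, and the FOXO motif was found in no window. The GC box was also found in the windows of Igf1r (2 matches) and Igf2r (3 matches) and in some Igf2 windows, and the TATA box in that of Igfbp6. The G and C content was 69.2% for Igfbp4 and 74% for Igfbp7, against a median of 52.4% for all windows. A match describes these letters only and shows no binding.

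On the build GRCm38, with gene models of GENCODE release M21, Igfbp3 (ENSMUSG00000020427, chr11:7206086-7213923, minus strand) and Igfbp4 (ENSMUSG00000017493, chr11:99041244-99054392, plus strand) lie on chromosome 11. Igfbp5 is ENSMUSG00000026185 (chr1:72857932-72874884, minus strand), Igfbp6 is ENSMUSG00000023046 (chr15:102144362-102149511, plus strand) and Igfbp7 is ENSMUSG00000036256 (chr5:77349240-77408041, minus strand). Igf1r (ENSMUSG00000005533, chr7:67952827-68233668, plus strand) shares a chromosome with Igf2 (ENSMUSG00000048583, chr7:142650766-142666816, minus strand). Igf2r is ENSMUSG00000023830 (chr17:12682406-12769664, minus strand) and Insr is ENSMUSG00000005534 (chr8:3122061-3279617, minus strand). The exons span 1112 bases in Igfbp6, the shortest member, and 16791 bases in Igf1r, the longest. Raw counts per library ran from 4 to 75 for Igfbp6, from 43 to 2108 for Igfbp5, from 138 to 3255 for Igfbp4 and from 19047 to 58638 for Igf1r. Counting error is therefore largest for Igfbp6, whereas the spread between CTRL sham libraries was widest for Igfbp5.

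The labels of genotype and cell type were checked first. Wwtr1, which encodes TAZ, was at 264.7 ± 9.66 CPM (counts scaled to the library size and its TMM factor, mean ± SD, n = 4) in CTRL sham and 72.1 ± 20.9 in YT-iKO sham, and Yap1 was at 111.8 ± 0.511 and 49.3 ± 9.70. No YT-iKO library reached the level of any CTRL library for either gene. Library totals ranged from 11418262 to 23074547 counts. All 10 endothelial markers (among them Cldn5, Cdh5 and Pecam1) were detected in every library, and their summed level ranged from 9578 to 20643 CPM. A few libraries stood apart, counted by genes more than 1 on the log2 scale beyond all 15 others. YT-iKO MCAo replicate 4 had 2 such genes above and 534 below, CTRL sham replicate 4 had 13 above and 1 below, and YT-iKO MCAo replicate 1 had 10 above and 0 below, against at most 5 in either direction in the other 13. An even background of reads, estimated from 419 sensory receptor genes that bECs are not known to use, ranged from 0.0590 to 0.257 CPM per kb of exon. Every member lay above the level expected from it in every library, by a median of 4.78-fold for Igfbp5 and 6.83-fold for Igfbp6 and by 18.4-fold or more for the other 7.

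Per kb of exon, Igfbp7 was the most abundant member in all 4 groups. In CTRL sham its level was 344 ± 22.5 CPM per kb (SD, n = 4), which placed it 47th from the top of 30983 genes ranked. Igf1r followed at 149 ± 3.46 CPM per kb and Insr at 44.8 ± 3.06. The ranges of these 3 genes did not overlap. Igfbp3 came next at 23.4 ± 20.2 CPM per kb, and its range overlapped that of Insr through its highest library. Igf2r (6.36 ± 1.03), Igfbp5 (6.14 ± 11.1), Igfbp4 (4.24 ± 3.12) and Igf2 (3.50 ± 0.995 CPM per kb) overlapped each with the next in this order, although every Igf2r library was above every Igf2 library. Igfbp6 had the lowest mean, 0.847 ± 0.601 CPM per kb. It lay below the range of Igf2 and overlapped that of Igfbp5, whose mean was carried by 1 library at 22.8 CPM per kb, with the other 3 at 0.510 to 0.673. In CTRL MCAo the mean of Igfbp4, 17.8 ± 10.6 CPM per kb, stood in rank 5, with a range that overlapped that of Igf2r below it. Igfbp5 had the lowest mean there and overlapped Igfbp6.

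**Figure D1:**
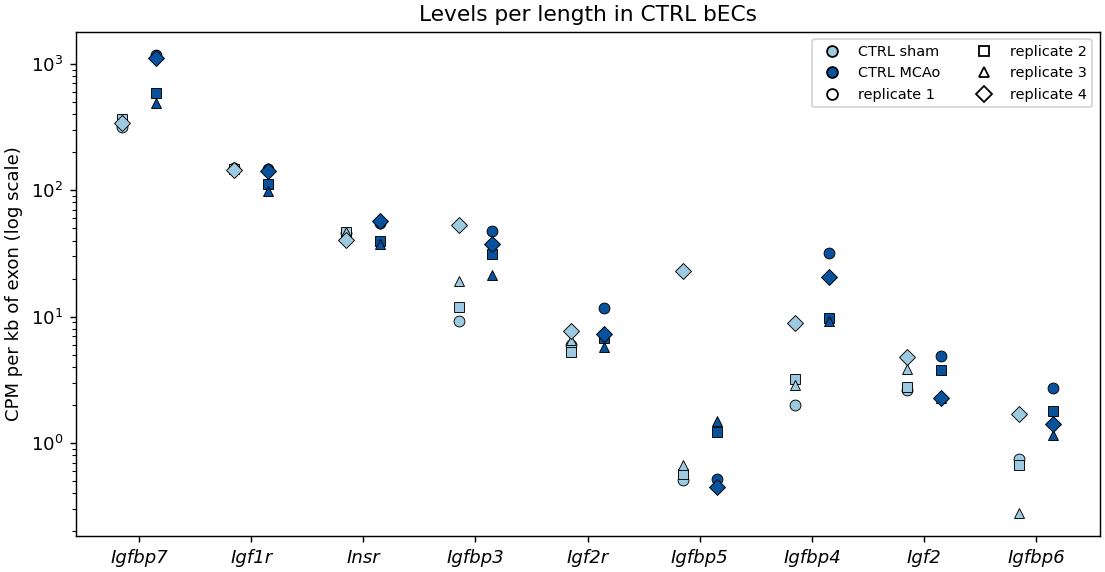
Level per kb of exon (CPM per kb, log axis) of the 9 members in CTRL sham (light) and CTRL MCAo (dark), 1 point per library with the replicate number as the shape. Igfbp7 lay between 315 and 363 CPM per kb in the sham libraries and between 488 and 1171 after MCAo, and 1 sham library of Igfbp5 lay at 22.8 while its other 3 lay near 0.5.

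Among the 5 binding protein genes, Igfbp7 made up a median of 86.8% of the summed CPM in CTRL sham and 83.1% in CTRL MCAo, and 85.2% and 81.5% in the corresponding YT-iKO groups. The median share of Igfbp4 was 2.68% in CTRL sham and 5.79% in CTRL MCAo, and 4.10% and 8.55% in YT-iKO. Its range was 2.085% to 5.19% in CTRL sham and 4.96% to 8.16% in CTRL MCAo, which overlapped. In YT-iKO it was 3.05% to 5.64% after sham and 6.25% to 12.3% after MCAo. In CTRL sham the lowest share of Igfbp7 was 54.3%, and the highest share of Igfbp5 was 18.2%. Igfbp3 held between 8.63% and 9.65% in all 4 groups by median. These shares are of reads and not of molecules, because they were not divided by length.

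The question of the comparison of MCAo with sham was how bECs respond to stroke in each genotype. Igfbp4, which encodes a binding protein known mainly as an inhibitor of IGF action, rose after MCAo in YT-iKO bECs and was the only member to pass the edgeR quasi-likelihood test, at an adjusted p under 0.1. Igfbp7 and Igfbp3 were also higher after MCAo in both genotypes, and neither passed. For the receptor genes and Igf2 the 95% intervals of the fold changes held 0 in both genotypes. Of the 9 members, 0 passed in CTRL, where 0.216% of all genes tested were called, and 1 passed in YT-iKO, where 0.318% were called. Without adjustment, 3 members had a p under 0.05 in CTRL (Igfbp4, Igfbp5 and Igfbp7) and 3 in YT-iKO (Igfbp3, Igfbp4 and Igfbp7), against 3.50% and 3.01% of all genes. The median log2 fold change of the 9 members was 0.31 in CTRL, where all genes had 0.07, and 0.61 in YT-iKO, where all genes had -0.02.

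In CTRL sham libraries 1 to 4, Igfbp4 was at 8.81, 14.1, 12.8 and 39.1 CPM, and in CTRL MCAo libraries at 139.5, 42.8, 40.5 and 91.4 CPM. The 2 groups did not overlap, and the closest values were those of sham replicate 4 and MCAo replicate 3. The YT-iKO sham libraries held Igfbp4 at 14.0, 10.5, 13.1 and 21.7 CPM, and in YT-iKO MCAo libraries at 163, 40.2, 31.9 and 129 CPM. Here too every MCAo library lay above every sham library, and in both genotypes MCAo replicates 1 and 4 were more than 2-fold above replicates 2 and 3. In CTRL the log2 fold change was 2.07 (SE 0.51, 95% interval 1.00 to 3.13, adjusted p = 0.162), a 4.20-fold difference. YT-iKO had 2.62 (SE 0.52, adjusted p = 0.0313 by edgeR with Benjamini-Hochberg adjustment over all genes), a 6.14-fold rise. The exact two-sided permutation test of single values gave p = 0.0286 in each genotype, the smallest that 4 against 4 libraries can give (36 such tests were run, and their p values are unadjusted). Such non-overlap, with MCAo above sham, held for 2 of the 9 members in CTRL (Igfbp4 and Igfbp7) and for 2.24% of all genes, and for 1 of 9 (Igfbp4) and 0.785% of all genes in YT-iKO.

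The call for Igfbp4 depended on the setting. DESeq2 called it in both genotypes (adjusted p = 0.0537 in CTRL and 0.00247 in YT-iKO, with 0.714% and 0.859% of all genes called). The study itself tested with DESeq2 at the same threshold, and its gene lists also hold Igfbp4 as higher after MCAo in both genotypes. limma-voom with sample quality weights called it in both at lower log2 fold changes, 1.71 in CTRL and 1.31 in YT-iKO. The adjusted p values by limma-voom were 0.000929 and 0.0533, with 24.2% and 18.1% of all genes called. With the replicate number as a block, edgeR called Igfbp4 in both genotypes (adjusted p = 0.0114 in CTRL and 0.00146 in YT-iKO). That setting called 119 and 132 of all genes. Over 25 alternative settings, each library left out among them, Igfbp4 was called in 10 in CTRL (adjusted p from 0.000929 to 0.732) and in 21 in YT-iKO (from 0.00146 to 0.222). In YT-iKO it was lost without MCAo replicate 1 (adjusted p = 0.218), sham replicate 1 (0.154) or sham replicate 2 (0.222), with log2 fold changes of 2.05 or more. It was also lost with only the groups compared (2.49, adjusted p = 0.157). Without MCAo replicate 4 it kept its call (2.40, adjusted p = 0.0169). In CTRL it was gained without CTRL sham replicate 4, whose Igfbp4 level was 3.28-fold above the mean of the other 3 (log2 fold change 2.71, adjusted p = 0.0357). It was also gained when any 1 of the 4 YT-iKO MCAo libraries, which are not in that comparison, was left out (adjusted p from 0.0257 to 0.0953). The plot of values by library shows where these libraries lie.

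**Figure D2:**
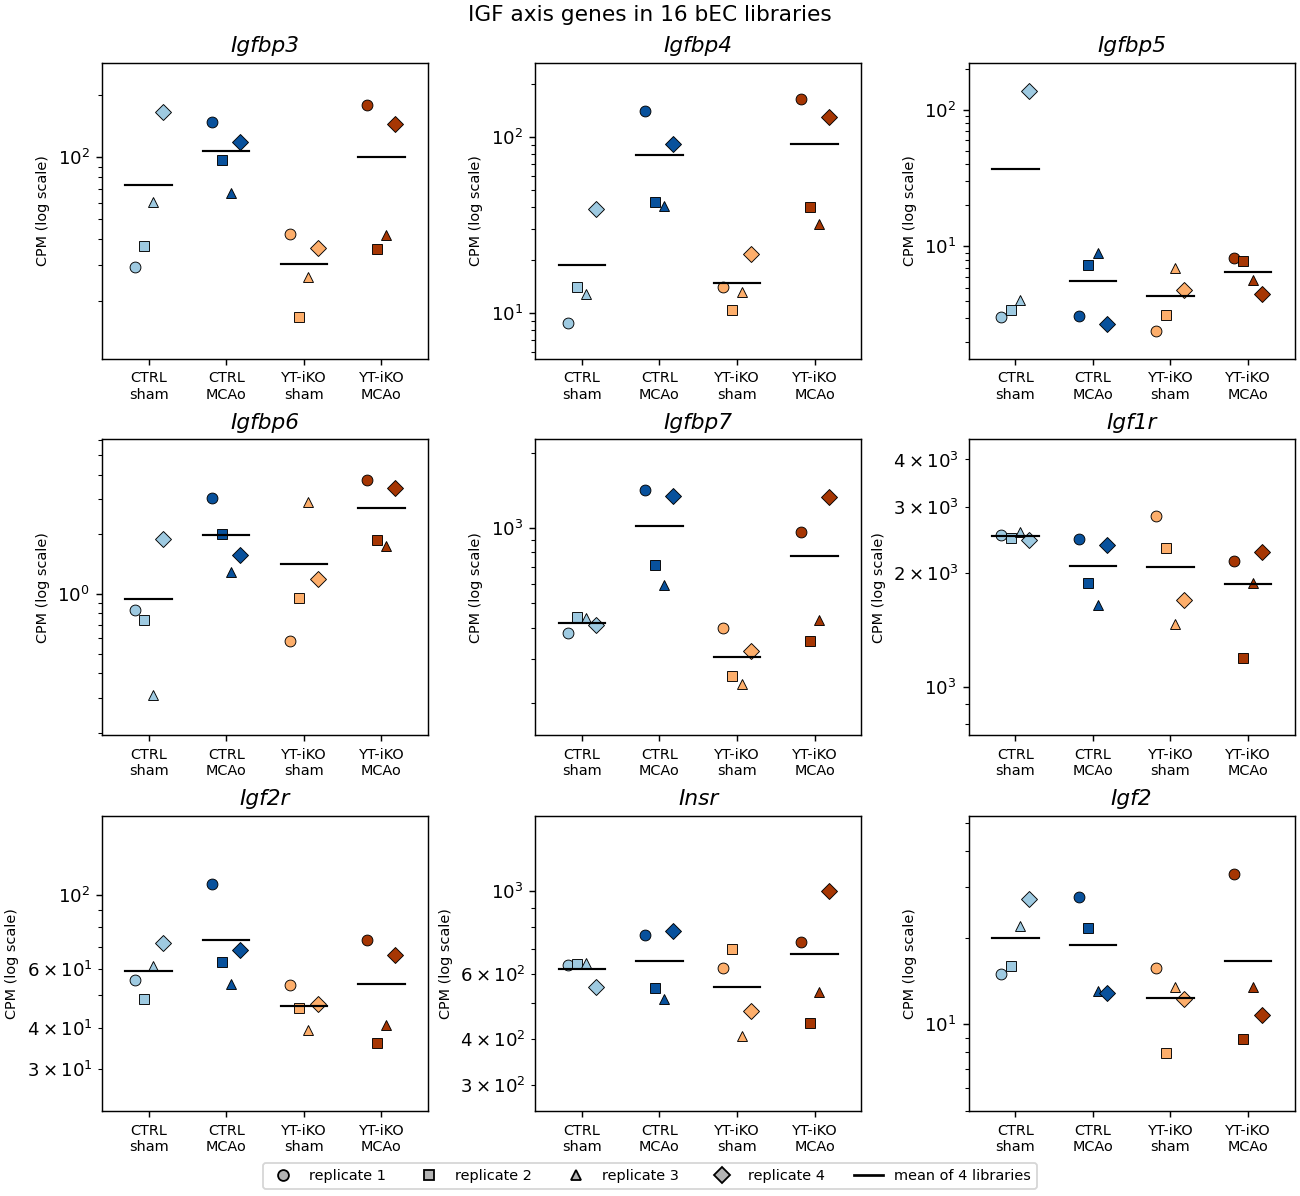
CPM (log axis) of each member in the 16 libraries by group, with the replicate number as the shape and the mean of 4 libraries as a line. Igfbp4 does not overlap between sham and MCAo in either genotype, and 1 CTRL sham library of Igfbp5 stands at 137 CPM while the other 15 lie at 9.02 CPM or less.

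Igfbp7 was at 381, 439, 436 and 409 CPM in CTRL sham and at 1416, 714, 590.2 and 1345 CPM in CTRL MCAo. The groups did not overlap, the sham libraries were within 1.15-fold of each other, and the MCAo libraries spanned 2.40-fold. YT-iKO libraries had it at 400.2, 256, 238 and 321 CPM in sham and at 968, 354, 428 and 1330 CPM in MCAo. There MCAo replicate 2 lay below sham replicate 1, and the other 3 MCAo libraries lay above all sham libraries. By edgeR its log2 fold change was 1.29 (SE 0.36, adjusted p = 0.362; 95% interval 0.53 to 2.05) in CTRL and 1.34 (SE 0.37, adjusted p = 0.26; 0.58 to 2.10) in YT-iKO. The exact permutation test gave p = 0.0286 and 0.0571. Without YT-iKO MCAo replicate 1 or 4, which stood apart and held the highest Igfbp7 values of that group, the YT-iKO value was 1.09 (adjusted p = 0.98) or 0.94 (0.635). Without replicate 2 or 3, the lowest of that group, it was 1.54 and called (adjusted p = 0.0325 or 0.0912). The CTRL value was called without YT-iKO MCAo replicate 4 (1.29, adjusted p = 0.0453), a library outside that comparison. DESeq2 called Igfbp7 in both genotypes (adjusted p = 0.00958 and 0.00677), and edgeR did so with TMM factors taken from abundant genes only, those above 10 CPM on average (0.00331 and 0.00731). That setting called Igfbp4 as well, and 1.78% of all genes in CTRL and 1.72% in YT-iKO. In the 25 settings it was called 5 times in each genotype, with adjusted p from 0.000649 to 1 in CTRL and from 0.00677 to 0.98 in YT-iKO. One exon stretch of 85 bases, 7.03% of the exon length of Igfbp7, is shared with Polr2b on the opposite strand.

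**Figure D3:**
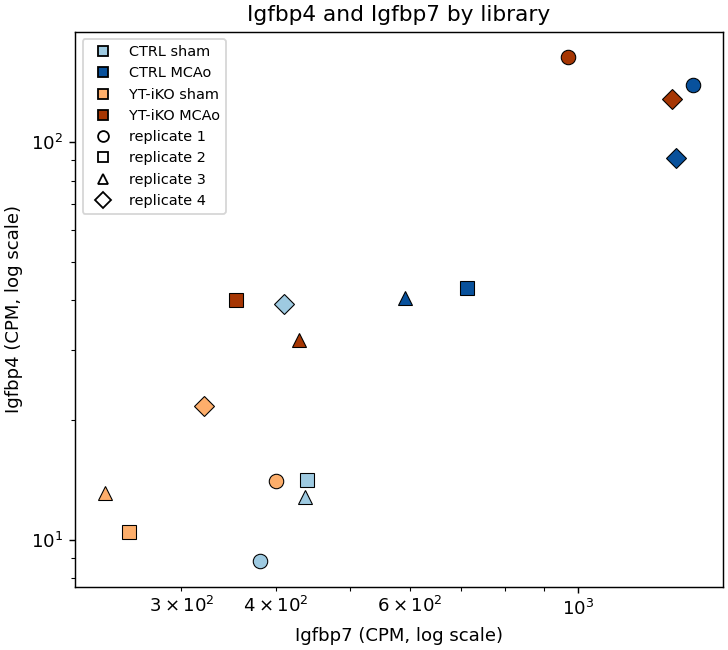
Igfbp4 (vertical, CPM) and Igfbp7 (horizontal, CPM) in each library on log axes, with groups as colours and replicate numbers as shapes. MCAo replicates 1 and 4 of both genotypes stand in the upper right at 91.4 to 163 CPM of Igfbp4, and MCAo replicates 2 and 3 are lower in both genes, with those of YT-iKO at Igfbp7 levels that sham libraries also reached.

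Igfbp3 encodes the main carrier of IGFs in plasma. Its values in CTRL were 29.2, 37.3, 60.4 and 166 CPM after sham and 149, 97.3, 66.8 and 118 CPM after MCAo. Sham replicate 4 was higher than every MCAo library, and the other 3 sham libraries were below all of them. In YT-iKO, Igfbp3 was at 42.4, 16.8, 26.3 and 36.4 CPM after sham and at 179, 36.03, 42.1 and 145 CPM after MCAo. MCAo replicates 1 and 4 were above all sham libraries, and replicates 2 and 3 were within their range. Its log2 fold change was 0.56 (SE 0.50, adjusted p = 1.00) in CTRL and 1.72 (SE 0.51, adjusted p = 0.402) in YT-iKO by edgeR. Without CTRL sham replicate 4 the value in CTRL was 1.36 (adjusted p = 0.749), and without YT-iKO MCAo replicate 1 that in YT-iKO was 1.16 (1.00). Over the 25 settings limma-voom alone called Igfbp3 in CTRL (0.81, adjusted p = 0.0942), where it called 24.2% of all genes.

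Igfbp6, whose product prefers IGF2 over IGF1, was near the low end of what these libraries can measure, at 4 to 75 counts. Its level was 0.941 ± 0.668 CPM in CTRL sham and 1.97 ± 0.767 in CTRL MCAo, and 1.41 ± 1.03 and 2.704 ± 1.04 CPM in YT-iKO (SD, n = 4). The ranges overlapped in both genotypes, and the log2 fold changes of 1.05 (SE 0.54) and 0.95 (SE 0.52) did not pass the edgeR test (adjusted p = 1.00 in both). Over the 25 settings limma-voom alone called Igfbp6 in CTRL (1.24, adjusted p = 0.0409), where it called 24.2% of all genes.

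Igfbp5 encodes a binding protein that also attaches to extracellular matrix. In CTRL sham it was at 3.06, 3.42, 4.04 and 137 CPM, which corresponds to 48, 60, 52 and 2108 counts. The fourth library was 39.0-fold above the mean of the other 3 and 15.2-fold above the highest of the other 15 libraries. In CTRL MCAo Igfbp5 was at 3.11, 7.37, 9.02 and 2.71 CPM, in YT-iKO sham at 2.41, 3.15, 6.93 and 4.81 CPM, and in YT-iKO MCAo at 8.18, 7.83, 5.63 and 4.49 CPM. These 3 groups overlapped one another. MCAo against sham in CTRL gave a log2 fold change of -2.73 (SE 0.87, adjusted p = 0.618) with all libraries and 0.70 (adjusted p = 1) without CTRL sham replicate 4. For YT-iKO the value was 0.61 (SE 0.85, adjusted p = 1.00) by edgeR.

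CTRL sham replicate 4 was apart in more than Igfbp5. Of its 13 genes that lay more than 1 on the log2 scale above all other libraries, Igfbp5 had the widest gap, 3.78. Next came Meis2 (2.16), a homeobox gene, Nog (1.90), a BMP antagonist, and Plvap (1.78), which encodes a protein of fenestral diaphragms, here at 307 CPM in this library and at most 88.9 CPM in the others. These genes were chosen after their values were seen. In the same library Igfbp3, Igfbp4 and Igfbp6 were 3.93-fold, 3.28-fold and 3.00-fold above the mean of the other CTRL sham libraries, whereas Igfbp7 (0.978-fold), Igf1r (0.968-fold) and Insr (0.868-fold) were at or below it. Its summed markers were 16579 CPM for endothelial cells, 1052 CPM for pericytes, 37.4 CPM for choroid plexus and 25.3 CPM for microglia and macrophages. The other 3 CTRL sham libraries had 17010 to 17859, 828 to 1010, 23.0 to 36.6 and at most 13.8 CPM. It was also the highest CTRL sham library in the summed markers of fibroblasts and meninges (31.1 against at most 28.6 CPM), astrocytes (110.4 against at most 104.2), oligodendrocytes (27.6 against at most 25.2) and neurons (18.3 against at most 15.2). The part of other cells or vessel types in the Igfbp5 value was not tested.

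**Figure D4:**
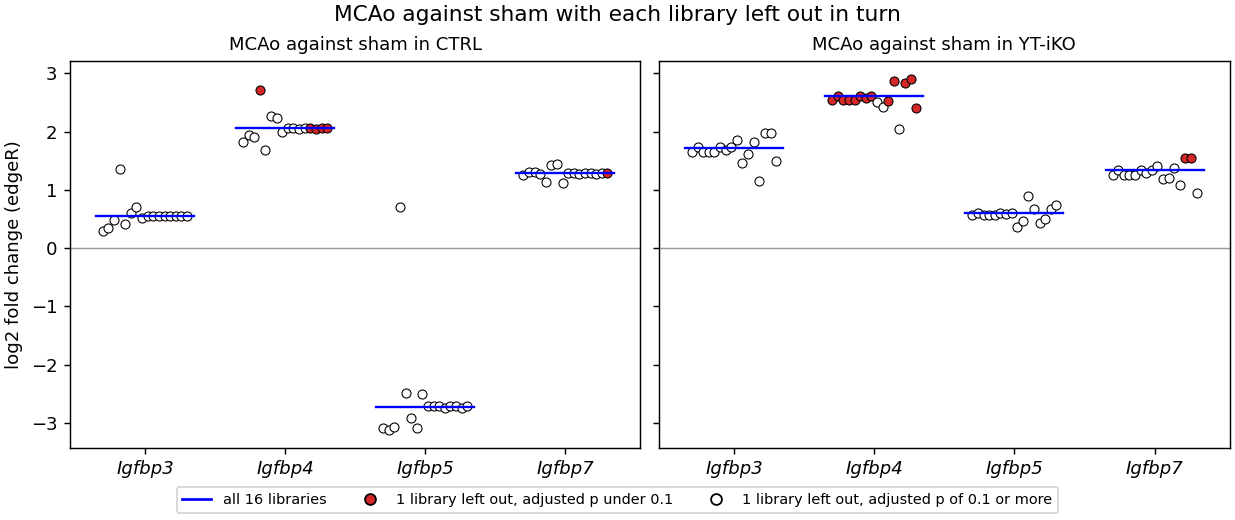
Log2 fold change of MCAo against sham (edgeR) for 4 binding protein genes in CTRL (left) and YT-iKO (right), with all 16 libraries (blue line) and with each library left out in turn (points, red where the adjusted p was under 0.1). Igfbp5 in CTRL moves from -2.73 to 0.70 when 1 sham library is left out, and Igfbp4 stays between 1.68 and 2.91 throughout.

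Levels of other cell types' markers were set beside these results. The 9 pericyte markers, none of them at 0 in any library, summed to 828 to 1052 CPM in CTRL sham and 637 to 1701 CPM in CTRL MCAo, and to 598 to 1001 and 567 to 1379 CPM in YT-iKO; 8 of 9 were higher after MCAo in each genotype and 0 were called by edgeR. The 10 fibroblast and meningeal markers summed to 25.1 to 31.1 CPM in CTRL sham and 37.1 to 46.9 CPM in CTRL MCAo, which did not overlap (exact permutation p = 0.0286), and to 25.5 to 53.7 and 32.8 to 53.7 CPM in YT-iKO. Of these, 8 of 10 were higher after MCAo in CTRL and 6 of 10 in YT-iKO, with 0 called by edgeR and 2 (Col1a2 and Dcn) and 1 (Dcn) by DESeq2. Lum was at 0 in CTRL sham replicate 4, and 10.9% to 34.2% of the summed level would be expected from the even background. The 6 choroid plexus markers summed to 23.0 to 37.4 CPM in CTRL sham and 23.9 to 105.7 CPM in CTRL MCAo (6 of 6 higher, exact permutation p = 0.114), and to 20.5 to 59.8 and 19.8 to 120.4 CPM in YT-iKO (5 of 6 higher, p = 0.714). The 6 oligodendrocyte markers summed to 20.9 to 27.6 CPM in CTRL sham and 27.7 to 33.1 CPM in CTRL MCAo, which did not overlap (5 of 6 higher, exact permutation p = 0.0286), and to 23.4 to 36.5 and 27.0 to 43.0 CPM in YT-iKO, which overlapped (3 of 6 higher, p = 0.457). For the 6 astrocyte markers the ranges overlapped in both genotypes, and DESeq2 called Gfap in CTRL. The sums of smooth muscle, neuron and microglia and macrophage markers also overlapped between sham and MCAo in both genotypes, none of these lists had a marker at 0 in any library, and edgeR called 0 of their genes. In CTRL after MCAo, where limma-voom called Igfbp3, Igfbp4, Igfbp6, Igfbp7 and Igf1r, it also called 4 of 10 endothelial markers lower (Tek, Kdr, Flt1 and Ocln), and 3 of 9 pericyte, 6 of 10 fibroblast and meningeal, 4 of 6 choroid plexus, 2 of 6 astrocyte, 1 of 6 oligodendrocyte and 1 of 8 microglia and macrophage markers higher. In YT-iKO after MCAo, where limma-voom called Igfbp4, it also called 3 of 10 endothelial markers lower (Kdr, Ocln and Tie1). Called higher there were 4 of 10 fibroblast and meningeal, 3 of 6 choroid plexus, 1 of 6 astrocyte and 1 of 6 neuron markers. The part of these markers in the Igfbp results was not tested, and in bulk RNA a change in the number of cells of a type and in the RNA per cell cannot be told apart.

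The MCAo replicates that were high in Igfbp4 and Igfbp7 also differed in the endothelial markers. Their sum was 20643 and 18994 CPM in CTRL MCAo replicates 1 and 4 and 13004 and 12188 CPM in replicates 2 and 3. The YT-iKO sums were 16974 and 19308 CPM in replicates 1 and 4 and 9578 and 12382 CPM in replicates 2 and 3. Total counts split in the same way, at 19504260 and 18662626 in CTRL MCAo replicates 1 and 4 and 12791352 and 12012438 in replicates 2 and 3. In YT-iKO MCAo they were 23074547 and 21510934 in replicates 1 and 4 and 11418262 and 12531666 in replicates 2 and 3. The part of depth in the Igfbp4 and Igfbp7 values was not tested. The even background ran the other way, at 0.0590 to 0.138 CPM per kb in replicates 1 and 4 and 0.192 to 0.257 CPM per kb in replicates 2 and 3. Igfbp4 and Igfbp7 were therefore also expressed as a share of the summed endothelial markers, a choice made after the data were seen. In CTRL, Igfbp7 equalled 2.24% to 2.48% of that sum after sham and 4.84% to 7.08% after MCAo, and in YT-iKO 1.79% to 2.33% and 3.46% to 6.89%. Igfbp4 equalled 0.0518% to 0.236% after sham and 0.329% to 0.676% after MCAo in CTRL, and 0.0733% to 0.154% and 0.257% to 0.962% in YT-iKO. On this scale neither gene overlapped between sham and MCAo in either genotype (exact permutation p = 0.0286 in each of the 4 tests), and the MCAo replicates still differed among themselves. Igfbp3 on this scale equalled 0.118% to 0.258% in YT-iKO sham and 0.340% to 1.06% in YT-iKO MCAo (exact permutation p = 0.0286), and in CTRL the groups overlapped (p = 0.171). These p values are unadjusted. The share of all genes without overlap on this scale is not given here, so how unusual such non-overlap is cannot be judged.

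Of the receptor genes, Igf1r and Insr were abundant, and none passed the edgeR test after MCAo. limma-voom called Igf1r lower in CTRL after MCAo (-0.40, adjusted p = 0.0695), among the 24.2% of all genes it called there; over the 25 settings this was its only call, with adjusted p up to 1. Igf1r was at 2523, 2473, 2576 and 2444 CPM in CTRL sham and at 2459, 1888, 1651 and 2372 CPM in CTRL MCAo. YT-iKO libraries had 2826, 2336, 1465 and 1696 CPM in sham and at 2155, 1193, 1888 and 2275 CPM in MCAo. CTRL sham was tight, with a coefficient of variation of 2.32%, against 18.5% to 29.7% in the other 3 groups. CTRL MCAo and YT-iKO sham overlapped it, and all YT-iKO MCAo libraries were below it. After MCAo the log2 fold change was -0.26 (95% interval -0.84 to 0.32) in CTRL and -0.15 (-0.73 to 0.43) in YT-iKO by edgeR.

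Insr was at 633, 637, 641 and 553 CPM in CTRL sham and ranged from 512 to 782 CPM in CTRL MCAo. In YT-iKO it ranged from 409 to 699 CPM after sham and from 442 to 1000 CPM after MCAo. The sham and MCAo libraries overlapped in both genotypes. The log2 fold change after MCAo was 0.08 (95% interval -0.48 to 0.63) in CTRL and 0.30 (-0.26 to 0.85) in YT-iKO by edgeR, and its sign in both genotypes turned with limma-voom (-0.12 and -0.11).

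Since scaling cancels in a ratio of 2 genes of the same library, Igf1r was also set over Insr, both per kb of exon, a choice made after the data were seen. The ratio was 3.27, 3.18, 3.29 and 3.62 in CTRL sham and 2.65, 2.82, 2.64 and 2.48 in CTRL MCAo. Every MCAo library was below every sham library (exact permutation p = 0.0286). That is the smallest p that 4 against 4 libraries can give. The share of gene pairs whose ratio separates in this way is not given here, so how unusual it is cannot be judged. The YT-iKO ratios were 3.73, 2.74, 2.93 and 2.92 in sham and 2.42, 2.21, 2.89 and 1.86 in MCAo, where MCAo replicate 3 lay within the sham range (exact permutation p = 0.0571). The ratio does not show which of the 2 receptor genes differed. Between genotypes it did not differ beyond the spread, with an exact permutation p = 0.314 after sham and 0.2 after MCAo (4 such tests, unadjusted).

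Igf2r was at 55.5, 48.8, 61.1 and 71.5 CPM in CTRL sham and 108, 63.0, 54.0 and 68.2 CPM in CTRL MCAo. The values in YT-iKO were 53.6, 46.0, 39.5 and 47.1 CPM in sham and 73.2, 35.9, 40.6 and 66.2 CPM in MCAo. The groups overlapped, with log2 fold changes of 0.31 (95% interval -0.20 to 0.82) in CTRL and 0.21 (-0.30 to 0.73) in YT-iKO by edgeR, the latter -0.06 without YT-iKO MCAo replicate 1.

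Igf2, the only ligand among the members, was at 20.02 ± 5.69 CPM in CTRL sham and 18.8 ± 7.22 in CTRL MCAo, and at 12.3 ± 3.23 and 16.6 ± 11.3 CPM in YT-iKO (SD, n = 4). Its highest library was YT-iKO MCAo replicate 1 at 33.2 CPM, while the other 3 libraries of that group lay between 8.90 and 13.5 CPM. Of the 16 libraries, that library also held the highest summed markers of choroid plexus (120.4 CPM), smooth muscle (117.8) and astrocytes (112.8), and of no other list. The part of these cells in the Igf2 value was not tested. The MCAo log2 fold change of Igf2 was -0.09 (95% interval -0.81 to 0.63) in CTRL and 0.43 (-0.29 to 1.15) in YT-iKO by edgeR. It turned to 0.10 in CTRL without CTRL sham replicate 4 and to -0.22 in YT-iKO without MCAo replicate 1. The values of Igf2 should be read with care. In GENCODE release M21, 62.8% of its exon length (3596 bases) is annotated as shared with Gm49394 on the same strand. The authors used release M12, and whether Gm49394 was in it was not checked here. How the counting divided any such reads is not given in the sources used here.

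**Figure D5:**
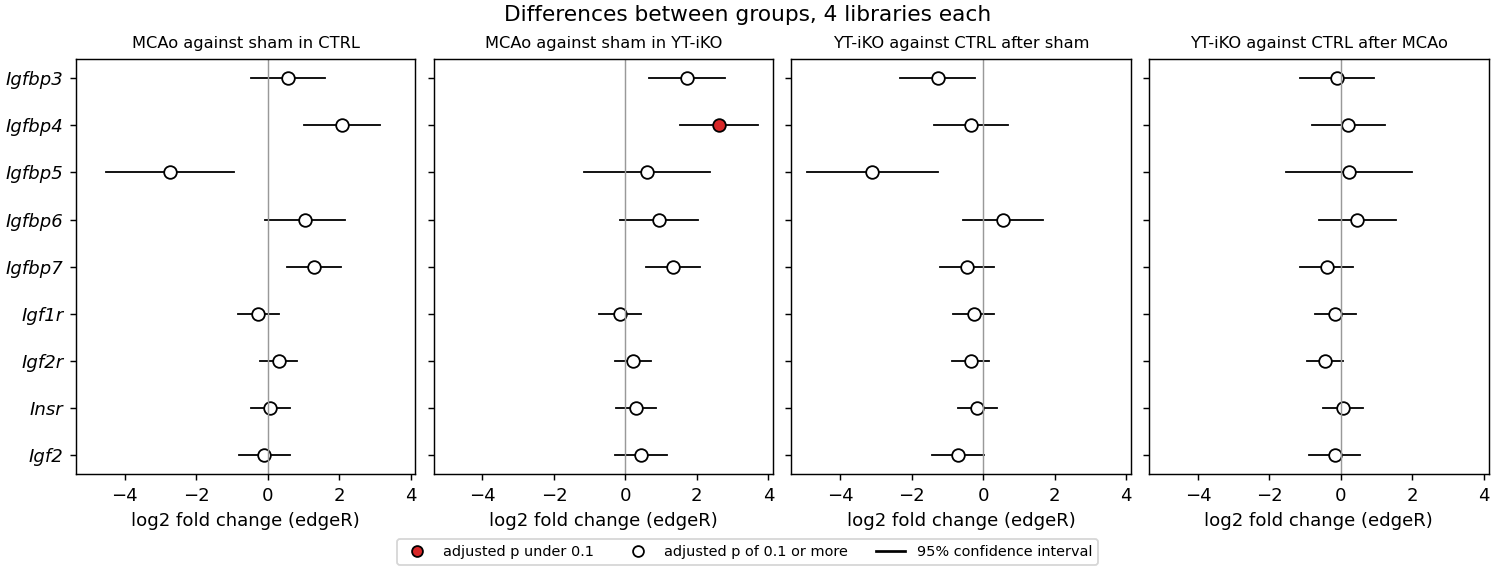
Log2 fold change (edgeR) of each member in 4 comparisons, with 95% confidence intervals, and red marks an adjusted p under 0.1. Only Igfbp4 in YT-iKO passed, at 2.62, and the receptor genes lie within 0.5 of 0 in all 4 comparisons.

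The comparison of YT-iKO with CTRL asked what the loss of YAP and TAZ changes. None of the 9 members passed the edgeR test after sham, where 0.0965% of all genes were called, or after MCAo, where 0.0708% were called. Without adjustment, 2 members (Igfbp3 and Igfbp5) had a p under 0.05 after sham, against 2.15% of all genes, and 0 after MCAo, against 1.49%. DESeq2 called 0 members in both, of 81 and 92 genes called in all. After sham 8 of 9 members were lower in YT-iKO, with a median log2 fold change of -0.35 against 0.11 for all genes. In the same comparison all 10 endothelial markers were lower, with a median of -0.32, 7 of 9 pericyte markers were lower, with a median of -0.33, and the summed astrocyte markers were lower without overlap (62.2 to 82.1 against 97.3 to 110.4 CPM, exact permutation p = 0.0286) although 3 of the 6 were higher, with a median of -0.07. Other lists ran the other way: 9 of 10 fibroblast and meningeal markers, 7 of 8 of microglia and macrophages, 5 of 6 neuron, 5 of 6 oligodendrocyte, 4 of 6 choroid plexus and 4 of 6 smooth muscle markers were higher in YT-iKO, with overlapping sums. The part of these in the members' values was not tested. After MCAo 5 of 9 members were lower, with a median of -0.10 against 0.03. No member had all YT-iKO libraries below all CTRL libraries, which held for 2.22% of all genes after sham and 0.415% after MCAo.

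The 2 members with an unadjusted p under 0.05 after sham were those in which CTRL sham replicate 4 was highest above its group. For Igfbp3 the log2 fold change was -1.26 (SE 0.51, adjusted p = 0.99 by edgeR) with all libraries and -0.46 (adjusted p = 0.997) without that library. For Igfbp5 the change from -3.10 (SE 0.88, adjusted p = 0.92) to 0.30 (adjusted p = 0.997) turned the sign. Igfbp4 also turned, from -0.34 to 0.32. Igfbp7 was at 416 ± 27.2 CPM in CTRL sham and 304 ± 73.6 in YT-iKO sham, with 3 YT-iKO libraries below all CTRL libraries (log2 fold change -0.45, 95% interval -1.20 to 0.29; exact permutation p = 0.0571), and its value without CTRL sham replicate 4 was again -0.45. Igf2 (-0.70, 95% interval -1.42 to 0.03) and Igf2r (-0.35, -0.86 to 0.17) had the same permutation p of 0.0571 after sham. Igf1r (-0.27, -0.85 to 0.31), Insr (-0.16, -0.71 to 0.39) and Igfbp6 (0.56, -0.57 to 1.68), the only member with a higher value in YT-iKO, overlapped between genotypes.

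After MCAo the genotypes overlapped in all 9 members. Igfbp4 was at 78.6 ± 46.9 CPM in CTRL and 91.0 ± 65.1 in YT-iKO (0.21 on the log2 scale, 95% interval -0.80 to 1.23). Igfbp7 was at 1016 ± 424 CPM in CTRL after MCAo and 770.2 ± 463 in YT-iKO (-0.40, -1.15 to 0.35). Igf2r was at 73.3 ± 23.9 CPM in CTRL and 54.0 ± 18.5 in YT-iKO (-0.44, -0.95 to 0.07). The log2 values of the other 6 were -0.10 for Igfbp3, 0.24 for Igfbp5, 0.46 for Igfbp6, -0.16 for Igf1r, 0.06 for Insr and -0.18 for Igf2, with 95% intervals that held 0. limma-voom with sample quality weights called Igfbp7 (-0.81, adjusted p = 0.0398) and Igf2r (-0.62, adjusted p = 0.0794) in this comparison, with 0.827% of all genes called. It also called the pericyte markers Kcnj8 and Abcc9, the choroid plexus marker Ttr and the astrocyte marker Gfap lower in YT-iKO. By edgeR 9 of 10 endothelial markers, with a median of -0.18, and 8 of 9 pericyte markers, with a median of -0.19, had lower values in YT-iKO and 0 were called. Their part in these calls was not tested. Over the 25 settings this was the only call of either gene, and their adjusted p ranged up to 1 in the others.

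The difference between the MCAo responses of the genotypes was tested as an interaction. No member and no other gene was called by edgeR (0% of 31085), and DESeq2 and limma-voom also called 0. At an unadjusted p under 0.05 there were 116 genes (0.373%) by edgeR. The Igfbp4 response was 2.07 in CTRL, and YT-iKO had 2.62, a difference of 0.55 (95% interval -0.90 to 2.00, adjusted p = 1.00), so the call in 1 genotype alone does not show that the responses differed. For Igfbp7 the difference was 0.05 (SE 0.51), and for Igfbp3 it was 1.16 (-0.30 to 2.63). Only Igfbp5 had an unadjusted p under 0.05, with a difference of 3.34 (SE 1.21, adjusted p = 1.00), which was -0.14 without CTRL sham replicate 4. The differences of the other 5 members lay between -0.10 (Igfbp6) and 0.52 (Igf2), with -0.09 for Igf2r, 0.11 for Igf1r and 0.22 for Insr.

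The wider IGF pathway was read from 34 further genes, all of which were tested. By edgeR 0 were called in any of the 5 comparisons, and at an unadjusted p under 0.05 there was 1 after MCAo in CTRL and 2 in YT-iKO. After MCAo, DESeq2 called 0 of the 34 in CTRL and 1 in YT-iKO (against 0.714% and 0.859% of all genes), edgeR with TMM factors from abundant genes called 1 in each (1.78% and 1.72%), and limma-voom called 10 and 6 (24.2% and 18.1%). The median log2 fold change of the list was 0.11 after MCAo in CTRL and 0.03 in YT-iKO, with ranges of -0.73 to 0.78 and -0.68 to 1.04. All 3 FOXO genes had a mean of at least 10 CPM, and so had 4 of 6 adaptors. None of the 7 ligand and carrier genes did. Igf1, the main ligand of Igf1r, had a mean of 2.83 CPM and ranged from 0.312 to 5.70 CPM over the 16 libraries.

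Htra1, a secreted serine protease known to cleave IGF-binding proteins, is named here after its values were seen. It was at 33.8, 37.5, 29.9 and 29.9 CPM in CTRL sham and at 29.5, 17.3, 18.04 and 23.4 CPM in CTRL MCAo, so every MCAo library was below every sham library. The share of all genes with MCAo below sham in this way is not given here. YT-iKO libraries had 30.8, 23.9, 19.8 and 30.4 CPM in sham and at 16.5, 11.0, 15.6 and 22.4 CPM in MCAo, where MCAo replicate 4 lay within the sham range. By edgeR the log2 fold change was -0.57 (SE 0.23, adjusted p = 1.00) in CTRL and -0.68 (SE 0.23, adjusted p = 0.639) in YT-iKO. DESeq2 called it in YT-iKO (adjusted p = 0.0985) and not in CTRL (0.42), and limma-voom (0.00103 and 0.00688) and edgeR with TMM factors from abundant genes (0.0529 and 0.00323) called it in both. Of the 5 listed genes for such proteases and their inhibitors, limma-voom also called Pappa2 in CTRL and Pappa, Pappa2 and Stc2 in YT-iKO. Over the 34 further genes, 4 of its 10 calls in CTRL and 4 of its 6 in YT-iKO were higher after MCAo. Stc1, of the same 5, was higher by edgeR at 0.62 (SE 0.40) in CTRL and 1.04 (SE 0.40, unadjusted p = 0.016) in YT-iKO, and was not called.

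The genes most like each member were found by Pearson's r of log2(CPM + 1) over the 16 libraries among 9132 genes whose mean reached 10 CPM, given as a description because the libraries share groups, depth and scaling. Igfbp4 was most like Mgp (r = 0.976), which encodes matrix Gla protein, and Plekho1 (0.972). With group means removed these were 0.929 and 0.93. Igfbp7 was most like Smad1 (0.981), a transducer of BMP signals, and Eef1a1 (0.978), a translation elongation factor, and Igfbp3 was most like Mfge8 (0.931) and Naglu (0.931). Igf1r was most like Rnf144b (0.96) and Sema3c (0.952), Insr like Mfng (0.964) and Ranbp10 (0.962), and Igf2r like Armcx4 (0.949) and Tcf7l1 (0.946). Igf2 reached 0.837 with Slc19a1 and 0.791 with Myl9. Igfbp5 reached 0.842 with Pcdh17 and 0.824 with Myo7a, values that include the library at 137 CPM. Only through that library did Igfbp5 reach a mean of 10 CPM, since the other 15 lay at 9.02 CPM or less. Among pairs of members, r was 0.871 for Igfbp4 and Igfbp7, 0.854 for Igfbp3 and Igfbp4 and 0.708 for Igf1r and Insr, and with group means removed 0.776, 0.907 and 0.874.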

How the data were processed

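Brain endothelial cells of 16 libraries were profiled by RNA-seq. According to the study's methods, the authors made libraries from low amounts of RNA with a SMART-Seq kit, sequenced them paired-end and mapped them with STAR 2.7.8a to GRCm38 with GENCODE release M12. The authors deposited raw counts per gene in 1 table, without normalization. Which program counted the reads, and how it treated strand and multiple matches, is not given in the sources used here. Positions and exon lengths came from GENCODE release M21 (36861 of 37003 genes found) and promoters from RefSeq (GRCm38.p6). No libraries held identical values.

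Counts were tested with edgeR 4.0.16 in R 4.3.3 (quasi-likelihood, TMM factors, filterByExpr set to at least 10 counts and a total of at least 15, all 4 groups in 1 model), with Benjamini-Hochberg adjustment over 31085 genes and a threshold of 0.1. CPM use the same factors. Single values were tested on log2(CPM + 1), with a pseudocount of 1, by an exact two-sided permutation over 70 assignments. Alternatives were DESeq2 1.42.0, limma 3.58.1 (voom with sample quality weights), RLE factors, TMM factors from abundant genes (mean of 10 CPM or more), other filters (none, or CPM above 1 in at least 4 libraries), an adjusted p under 0.05, only the groups compared, a replicate block and each library left out. Replicate numbers were checked as pairs on 1000 genes: 13 of 24 same-number pairs had a correlation of deviations above 0.1 (median 0.155, against -0.0854 for pairs with different numbers). The study's methods name no pairing and not every pair passed 0.1, so the numbers were not read as pairs. This does not show that libraries of the same number are independent. Results with the number as a block are therefore given as an alternative. The scripts were tested on simulated counts.

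The members, marker lists and list of other IGF genes were chosen with earlier results of these data known. All 9 members were to be named in every comparison. Of the other IGF genes, those called by edgeR were to be named. For each member with a mean of 10 CPM or more, the 2 genes most like it were named. Total counts of 11418262 to 23074547 per library set the counting error, and the standard errors of the fold changes were largest for Igfbp5.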

Additional observations from a re-analysis of the deposited data

Results flagged for a closer look

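Each of the 36 combinations of member and group was examined for 1 library far from the other 3, by the gap to the nearest library over the group's range (Dixon's test at the 95% level). Chance marks about 1 in 20 groups, and 2 of the 36 were marked, both in CTRL sham replicate 4. Igfbp5 was at 137 CPM there, with a gap of 0.993 of the range above the next library. Insr was at 553 CPM, with a gap of 0.902 of the range below the next library.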

How the results depend on the processing

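Of 396 values recomputed under settings other than leaving out 1 library, 364 kept their direction and their side of the threshold. Members called changed as follows. MCAo against sham in CTRL had 0 members called, but 2 with DESeq2, 2 with TMM factors from abundant genes and 2 with only the groups compared (Igfbp4 and Igfbp7 each time), and 5 with limma-voom. MCAo against sham in YT-iKO had 1 member called, but 2 with DESeq2, 2 with TMM factors from abundant genes and 0 with only the groups compared. YT-iKO against CTRL after MCAo had 2 with limma-voom. With the replicate number as a block, 1 member was called in CTRL (Igfbp4, log2 fold change 1.99, adjusted p = 0.0114) and 2 in YT-iKO (Igfbp4, and Igfbp7 at 1.21, adjusted p = 0.0921), although the numbers were not read as pairs. Over all genes, calls after MCAo numbered 67 in CTRL and 99 in YT-iKO by edgeR, 222 and 267 by DESeq2, 7538 and 5626 by limma-voom, 554 and 534 with TMM factors from abundant genes, 623 and 17 with only the groups compared, and 119 and 132 with the block. Between genotypes the same settings gave 30 to 143 calls after sham and 22 to 257 after MCAo. Signs turned with limma-voom for Igfbp4 after sham in YT-iKO against CTRL (0.01), and after MCAo for Igfbp4 (-0.40), Igfbp5 (-0.10) and Insr (-0.12) in YT-iKO against CTRL; for Insr (-0.12 in CTRL, -0.11 in YT-iKO) and Igf2r (-0.23 in YT-iKO) in MCAo against sham; and for Igfbp3 (-0.24), Igfbp4 (-0.41) and Igfbp7 (-0.40) in the difference between responses. They turned without a filter for Insr in YT-iKO against CTRL after MCAo (-0.02) and for Igfbp7 in the difference (-0.02), and with TMM factors from abundant genes for Igfbp7 (-0.15) and Igf1r (-0.01) in the difference. These factors moved the median log2 fold change of all genes from 0.11 to 0.30 between genotypes after sham and from 0.07 to 0.21 after MCAo in CTRL. The cause was not tested. With each library left out in turn, members called ranged from 0 to 2 in MCAo against sham in CTRL and from 0 to 2 in YT-iKO. Signs that turned spanned these ranges of log2 fold change: after sham in YT-iKO against CTRL, Igfbp4 -0.59 to 0.32, Igfbp5 -3.50 to 0.30 and Igfbp6 -0.06 to 1.13; after MCAo, Igfbp3 -0.66 to 0.16, Igfbp4 -0.34 to 0.53, Igfbp5 -0.05 to 0.54, Insr -0.20 to 0.18 and Igf2 -0.83 to 0.02; for MCAo against sham in CTRL, Igfbp5 -3.12 to 0.70, Insr -0.03 to 0.15 and Igf2 -0.28 to 0.10; in YT-iKO, Igf2r -0.06 to 0.34 and Igf2 -0.22 to 0.63; and for the difference, Igfbp4 -0.16 to 0.86, Igfbp5 -0.14 to 3.73, Igfbp6 -0.73 to 0.49, Igfbp7 -0.35 to 0.26, Igf1r -0.06 to 0.25, Igf2r -0.37 to 0.04, Insr -0.05 to 0.34 and Igf2 -0.13 to 0.72. None of these turned values was called.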
